A study of Mus musculus with 24 samples.

Results

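The enzymes that make foreign and endogenous reactive compounds harmless, and that keep cellular thiols reduced, were followed in 3T3-L1 adipocytes exposed to a PPARδ or a PPARγ agonist. The members were all measured genes whose symbols begin with Gst (glutathione S-transferases), Cyp and a number (cytochromes P450), Ugt, Sult, Aldh, Akr, Prdx, Txn or Gpx and a number, together with Hmox1, Nqo1, Inmt and Ephx2. Of the 8389 genes with a value, 73 met this rule, out of 240 protein-coding genes of the mouse annotation that match it by symbol. All 73 were measured in the arrays normalized with the PPARγ agonist and 70 in those normalized with the PPARδ agonist; Aldh1l1, Cyp2c54 and Cyp2c70 were measured only in the former. The rule goes by symbol, so that it also takes in Txnl4a and Txnl4b, which belong to the splicing machinery, and Txnip, an inhibitor of thioredoxin.

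Cells handle reactive compounds in steps. Cytochromes P450 and the aldehyde and aldo-keto enzymes oxidize or reduce a compound, and transferases then attach glutathione (Gst), glucuronic acid (Ugt) or sulfate (Sult), which makes it easier to export. Thioredoxins, peroxiredoxins and glutathione peroxidases pass electrons from NADPH to disulfides and peroxides. In adipocytes, the oxidation of lipids can yield peroxides and reactive aldehydes, which peroxidases, aldehyde dehydrogenases and glutathione S-transferases remove. PPARδ and PPARγ are nuclear receptors that bind DNA with a retinoid X receptor and control genes of fatty acid oxidation and storage.

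3T3-L1 is a mouse fibroblast line that becomes adipocyte-like under a hormone cocktail, so the cells model fat cells in isolation, all from 1 clonal line. On day 11 after induction, flasks received medium with insulin and either the vehicle DMSO, the PPARδ-selective agonist GW610742 or the PPARγ-selective agonist GW347845 for 2 days, with 6 arrays in each group. The labels give 1 µM GW610742, which is also 1 of the concentrations in the methods, and 100 µM GW347845, where the methods give lower ones, and the GW347845 dose of the arrays was not settled, so that compound and dose cannot be told apart where the agonists are compared. Nothing states whether the 6 arrays of a group came from separate differentiations, so P-values measure the spread between arrays. RNA was hybridized to Illumina mouse bead arrays. The authors stabilized the variance of the values, which are treated here as log2. Folds therefore take 1 unit as a doubling, which is approximate and was not tested for dim probes. The 6 DMSO hybridizations appear in 2 versions, normalized once with each agonist (same-numbered columns correlated at 0.9987 or higher after removal of the mean), so both comparisons share their controls and only values of 1 set were compared directly. Because every array was quantile normalized, changes are relative to the other transcripts of the same array.

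The cells carried both adipocyte and preadipocyte transcripts. Adiponectin (Adipoq) ranged from 12.57 to 13.74 in the DMSO arrays of the PPARδ set and the preadipocyte gene Dlk1 from 14.38 to 14.53, near the top of the scale (14.81), while 1 of 10 listed macrophage genes was measured. Of the 10 preadipocyte and fibroblast genes measured, of 14 listed, the collagens Col3a1 (-1.16) and Col1a2 (-0.71) fell with the PPARγ agonist without overlap and the other 8 did not pass, and with the PPARδ agonist Col1a2 alone passed (0.23). The mean of these 10 genes ranged from 10.99 to 11.33 in the PPARγ agonist arrays against 11.19 to 11.31 in their controls, and from 11.42 to 11.53 in the PPARδ agonist arrays against 11.35 to 11.46, and its part in the results was not tested. The adipocyte markers Cfd, Retn, Cebpa and Acsl1 were not measured in either set, and Fabp4 and Slc2a4 only in the PPARγ set. The mean of the measured adipocyte markers varied within groups, from 8.91 to 9.65 in the DMSO arrays and from 8.85 to 10.30 in the PPARγ agonist arrays of that set. PPARγ agonist replicate 6 resembled the DMSO arrays (median correlation 0.9903) more than the other arrays of its own group (0.987). Results with the PPARγ agonist are given with and without it where it mattered. Of the measured cell cycle genes, 8 of 9 rose with the PPARδ agonist and none with the PPARγ agonist, in which 1 of 9 fell; the mean cell cycle level was 7.93 to 8.80 in PPARδ agonist-treated cells against 7.51 to 7.86 in their controls, and its part in the results was not tested. In bulk RNA, fewer cells of a type and less RNA per cell cannot be told apart. Of the measured genes known to respond to PPARs, 7 of 10 rose with the PPARδ agonist; 6 of 11 rose and Pdk4 fell with the PPARγ agonist.

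4 genes frame the results, and their promoters are shown because Cyp1b1, Txn1 and Txndc12 were the members that passed the test in opposite directions with the agonists and Prdx1 was among those that rose with both. The windows, from RefSeq on GRCm38.p6, run from 250 bases before to 50 after the annotated start, 5′ to 3′ on the gene's strand. They lie at chr17:79715012-79715311 (Cyp1b1, minus strand), chr4:57956362-57956661 (Txn1, minus strand), chr4:108834428-108834727 (Txndc12, plus strand) and chr4:116685349-116685648 (Prdx1, plus strand). Capitals mark GCGTG, the core of the element bound by the aryl hydrocarbon receptor and its partner Arnt, in Cyp1b1 and Txn1, and TGACNNNGC, the core of the antioxidant element bound by Nrf2, in Prdx1, each on either strand, and the Txndc12 window, which holds no GCGTG, has no capitals.
Cyp1b1: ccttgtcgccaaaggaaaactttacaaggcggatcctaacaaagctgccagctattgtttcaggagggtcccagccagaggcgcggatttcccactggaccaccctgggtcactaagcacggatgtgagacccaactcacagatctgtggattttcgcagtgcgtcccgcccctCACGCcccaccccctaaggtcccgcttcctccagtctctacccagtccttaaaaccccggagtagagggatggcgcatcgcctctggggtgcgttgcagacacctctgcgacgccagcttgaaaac
Txn1: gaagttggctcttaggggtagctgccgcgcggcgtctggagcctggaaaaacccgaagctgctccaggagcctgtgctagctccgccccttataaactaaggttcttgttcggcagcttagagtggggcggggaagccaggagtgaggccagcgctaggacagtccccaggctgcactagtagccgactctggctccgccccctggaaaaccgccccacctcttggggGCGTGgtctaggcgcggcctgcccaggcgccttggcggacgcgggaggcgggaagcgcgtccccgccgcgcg
Txndc12: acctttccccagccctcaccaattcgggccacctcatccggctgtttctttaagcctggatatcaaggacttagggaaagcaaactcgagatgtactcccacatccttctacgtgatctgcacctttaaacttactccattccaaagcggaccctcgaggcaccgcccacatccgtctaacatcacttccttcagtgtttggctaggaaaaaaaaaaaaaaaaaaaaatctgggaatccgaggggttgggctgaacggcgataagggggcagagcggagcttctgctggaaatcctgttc
Prdx1: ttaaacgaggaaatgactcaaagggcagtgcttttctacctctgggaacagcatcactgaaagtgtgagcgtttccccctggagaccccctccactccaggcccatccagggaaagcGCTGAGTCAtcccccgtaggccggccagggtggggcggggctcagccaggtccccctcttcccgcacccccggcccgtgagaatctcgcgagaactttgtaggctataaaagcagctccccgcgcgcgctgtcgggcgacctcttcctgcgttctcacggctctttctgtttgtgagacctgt

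The Cyp1b1 window holds 1 GCGTG, on the reverse strand at position -76 from the start and the Txn1 window 1 at position -22. Prdx1 has 1 antioxidant core on the reverse strand at position -133. Over all 32851 promoter windows of the table, 32.4% held GCGTG and 12.4% held TGACNNNGC. Among the 73 windows of the 62 members found there, 41.1% held the first and 6.85% the second, in 26 and 5 genes. The other 11 members, Ephx2 and Hmox1 among them, had no window and were not searched. The PPAR response element in its perfect form, AGGTCANAGGTCA, was in 13 of all windows and in none of the members' windows, and the looser AGGNCANAGGNCA was in 125 and in none. These short windows do not cover distal elements, and a match is a description of the letters.

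With the PPARδ agonist, 6 of 70 members rose and 13 fell, against 8.26% and 8.69% of all genes, and 51 did not pass the test (limma, Benjamini-Hochberg adjusted over all 13718 probes, threshold 0.05). The members that fell made up 18.6% of the list. The median member difference was -0.041 on the log2 scale, beside -0.012 over all genes. The sulfotransferase Sult1a1, 2 of 3 glucuronosyltransferases and 3 of 5 glutathione peroxidases fell, while Ephx2, Aldh1a7 and Txn1 rose. Treated arrays lay all above the DMSO arrays for 4 members, Cyp1b1, Ephx2, Prdx1 and Txn1, against 3.39% of all genes, and all below for 5, Gpx1, Gstp1, Inmt, Sult1a1 and Ugt1a6b, against 3.08%.

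With the PPARγ agonist, 5 of 73 members rose and 9 fell, against 10.2% and 12.8% of all genes, shares that were near the background for the whole list, and 59 did not pass. The median member difference was 0.02, beside 0.028 over all genes. Ephx2 and Hmox1 rose most, and Txndc12, Txn1 and Cyp1b1 fell most. Treated arrays lay all above the controls for 4 members, Ephx2, Hmox1, Prdx1 and Prdx3, against 2.86% of all genes, and all below for 7, Akr1e1, Cyp1b1, Gstm5, Gstt3, Inmt, Txn1 and Txndc12, against 8.35%. Without replicate 6, 8 members rose and 10 fell, against 14.5% and 14.1% of all genes in that fit. The plot of the changes by family shows both comparisons side by side.

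**Figure D1:**
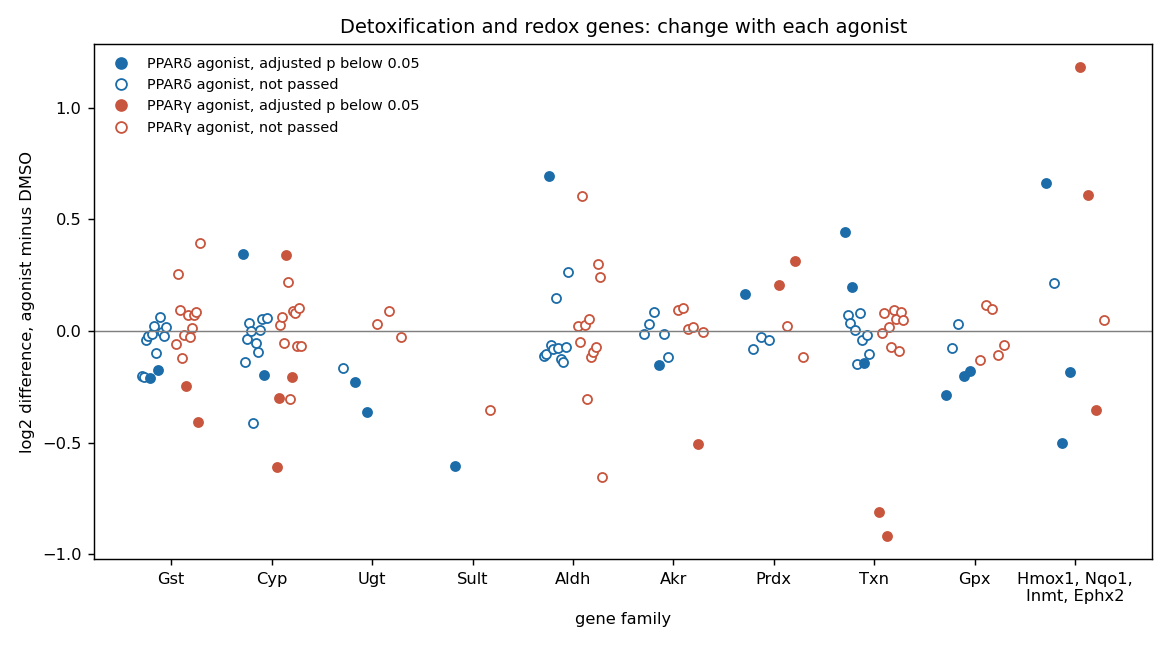
Log2 difference of each member between agonist-treated and DMSO arrays (y axis) by gene family (x axis), PPARδ agonist in blue and PPARγ agonist in red, filled where the adjusted P was below 0.05. Most points lie near 0, and the largest changes are the rise of Ephx2 with the PPARγ agonist (1.18) and the fall of Txndc12 with the same agonist (-0.92).

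Of the 70 members measured with both agonists, 44 passed the test with neither, and those that passed with both were 6. Cyp1b1, Txn1 and Txndc12 rose with the PPARδ agonist and fell with the PPARγ agonist, Ephx2 and Prdx1 rose with both, and Inmt fell with both. The 44 read between -0.41 (Cyp2f2) and 0.26 (Aldh6a1) with the PPARδ agonist and between -0.65 (Aldh6a1) and 0.39 (Gstz1) with the PPARγ agonist. Such pairs of calls were not counted over all genes, so whether these counts are unusual cannot be told. Since the controls are also shared, these counts are a description of the values side by side and not of a relation between the agonists.

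Txn1, the cytosolic thioredoxin that reduces protein disulfides and feeds peroxiredoxins, had values of 9.64, 9.83, 9.49, 9.56, 9.59 and 9.64 in the 6 PPARδ agonist arrays (replicates 1 to 6) against 9.25, 9.09, 9.15, 9.31, 9.03 and 9.27 in their DMSO arrays. The groups did not overlap, and Txn1 rose by 0.44 ± 0.059 (SE, adjusted P = 0.000177), or 1.36-fold. With the PPARγ agonist its arrays read 8.29, 8.14, 8.56, 7.74, 8.01 and 8.45 against 9.07, 8.91, 8.97, 9.13, 8.85 and 9.10, again without overlap, and it fell, with a difference of -0.81 ± 0.11 (SE, adjusted P = 7.33e-05), or 1.75-fold lower. The difference between the responses, here and throughout that with the PPARδ agonist minus that with the PPARγ agonist, was 1.25 (adjusted P = 7.76e-07).

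Txndc12, a thioredoxin-domain protein of the endoplasmic reticulum, ranged from 10.02 to 10.20 (median 10.10) in PPARδ agonist-treated cells and from 9.72 to 10.06 (median 9.92) in their controls, so that the groups overlapped, and it rose by 0.20 ± 0.052 (SE, adjusted P = 0.0161). It fell with the PPARγ agonist, where the arrays ranged from 8.44 to 9.01 (median 8.84) against 9.53 to 9.87 (median 9.74) without overlap, and the difference was -0.92 ± 0.086 (SE, adjusted P = 1.91e-06). Its responses differed by 1.11, 95% interval 0.94 to 1.29.

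Of the 11 genes named for thioredoxin, by their brightest probes, 2 rose and 1 fell with the PPARδ agonist and 2 fell with the PPARγ agonist. The third call with the PPARδ agonist was that of Txnl4b, a splicing protein, which fell by 0.14 (adjusted P = 0.0318), and leaving out DMSO replicate 1, 4, 5 or 6 or PPARδ agonist replicate 1 ended this call (adjusted P up to 0.0745). The mitochondrial Txn2 read 0.07 and -0.01 with the agonists, and the reductase Txnrd2 read -0.02 and 0.09, none of which passed. Dimmer probes did pass with the PPARγ agonist: 1 of Txnrd2 rose by 0.18 (adjusted P = 0.0376) and 1 of Txndc15 fell by 0.32 (adjusted P = 0.00124). Txnip passed with neither agonist by its brightest probe (0.08 and 0.10), whereas its other probe rose with both, by 0.18 and 0.21.

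Cyp1b1, a cytochrome P450 that oxidizes aromatic hydrocarbons and steroids and that is a textbook target of the aryl hydrocarbon receptor, ranged from 11.49 to 11.76 (median 11.61) with the PPARδ agonist against 11.18 to 11.39 (median 11.26) in DMSO. It rose by 0.34 ± 0.053 (SE, adjusted P = 0.000535). With the PPARγ agonist it ranged from 10.39 to 10.61 (median 10.50) against 11.00 to 11.22 (median 11.09), and the difference was -0.61 ± 0.054 (SE, adjusted P = 1.27e-06). All treated arrays of each agonist were on their own side of the controls, as the plot of these genes by array shows. The responses differed by 0.95, 95% interval 0.83 to 1.07. Arnt, the partner of that receptor, fell with the PPARδ agonist (-0.22, adjusted P = 0.012), while in the PPARγ set it differed by 0.09 (adjusted P = 0.351). The gene of the receptor itself was not among the 12 regulators counted here.

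**Figure D2:**
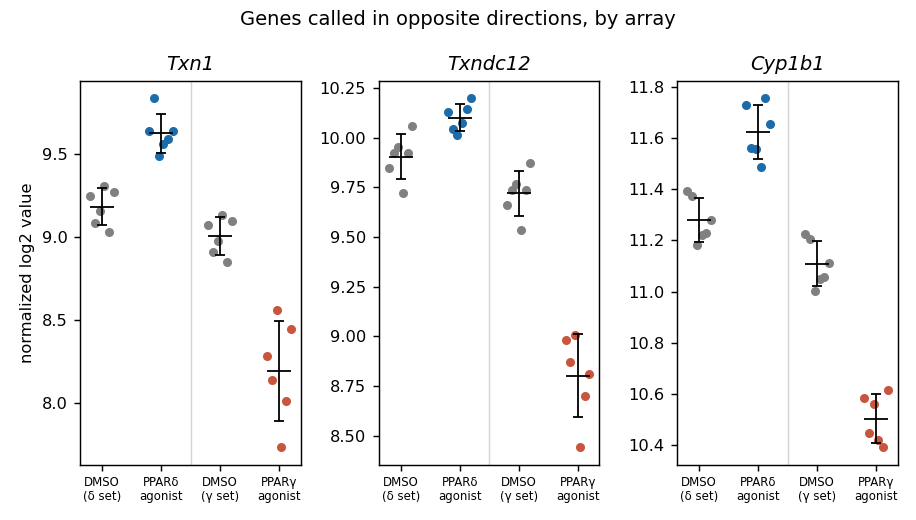
Normalized log2 values (y axis) of Txn1, Txndc12 and Cyp1b1 in each of the 6 arrays of each group (x axis), with the mean and SD as black bars. PPARδ agonist arrays lie above or overlap their DMSO arrays, and PPARγ agonist arrays lie below theirs without overlap.

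Ephx2 encodes the soluble epoxide hydrolase, which opens epoxides of fatty acids such as those made by P450 enzymes. With the PPARδ agonist its arrays ranged from 9.81 to 10.32 (median 10.05) against 9.27 to 9.68 (median 9.33) in DMSO, without overlap, and it rose by 0.66 ± 0.081 (SE, adjusted P = 0.000106), or 1.58-fold. In the PPARγ set the treated arrays read 10.77, 11.06, 11.20, 9.91, 9.87 and 9.68 against 9.38, 9.18, 9.50, 9.13, 9.09 and 9.12, and it rose by 1.18 ± 0.23 (SE, adjusted P = 0.00169), or 2.27-fold. Replicates 1 to 3 of the PPARγ agonist were higher than replicates 4 to 6, and the same was true of the DMSO arrays. The difference between the responses was -0.52 ± 0.23 (SE, adjusted P = 0.106, 95% interval -1.02 to -0.02), but without PPARγ replicate 6 it was -0.67 (adjusted P = 0.0289).

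Prdx1, a peroxiredoxin of the cytosol that is reduced by thioredoxin, rose with both agonists without overlap of the groups. With the PPARδ agonist it ranged from 13.77 to 13.90 (median 13.85) against 13.62 to 13.75 (median 13.68) in DMSO and rose by 0.17 ± 0.04 (SE, adjusted P = 0.00852). In PPARγ agonist-treated cells it ranged from 13.62 to 13.91 (median 13.71) against 13.45 to 13.59 (median 13.53) and rose by 0.21 ± 0.051 (SE, adjusted P = 0.00826). The responses differed by -0.04, 95% interval -0.15 to 0.07, which the test did not separate from 0 (adjusted P = 0.591). The mitochondrial Prdx3 rose with the PPARγ agonist, by 0.31 ± 0.071 (SE, adjusted P = 0.00465), and read -0.02 (adjusted P = 0.751) with the PPARδ agonist. For Prdx3 the difference between the agonists itself passed, at -0.34 (adjusted P = 0.00472). Prdx2 and Prdx4 passed with neither agonist.

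Inmt, which methylates indole amines such as tryptamine, fell with both agonists. It read 7.44 to 7.58 (median 7.48) in PPARδ agonist-treated cells against 7.88 to 8.14 (median 7.99) and fell by 0.50 on the log2 scale (SE 0.048, adjusted P = 7.73e-06), and with the PPARγ agonist it read 7.29 to 7.64 (median 7.52) against 7.73 to 7.98 (median 7.83) and fell by 0.36 (SE 0.065, adjusted P = 0.000861). Neither pair of groups overlapped. The responses were not separated by the test (difference -0.15, 95% interval -0.27 to -0.02, adjusted P = 0.0752).

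Hmox1, the inducible haem oxygenase that releases iron and biliverdin from haem, read 9.30, 9.35, 9.58, 10.13, 9.39 and 9.10 in the PPARγ agonist arrays against 8.71 to 9.04 (median 8.85) in DMSO. The groups did not overlap, replicate 4 was the highest, and Hmox1 rose by 0.61 ± 0.13 (SE, adjusted P = 0.00294), or 1.53-fold. With the PPARδ agonist it read 0.22 ± 0.077 (SE, adjusted P = 0.0599), higher in 5 of 6 arrays, and did not pass. The responses differed by -0.39 (adjusted P = 0.0461), and leaving out PPARδ agonist replicate 3, 4, 5 or 6 or PPARγ agonist replicate 2, 3, 4 or 5 ended this call (adjusted P up to 0.1), as did cyclic loess (adjusted P = 0.0651) and a robust prior (adjusted P = 0.1). Nqo1, the quinone reductase that like Hmox1 is a known target of Nrf2, fell with the PPARδ agonist by 0.18 (SE 0.056, adjusted P = 0.0301) and read 0.05 (adjusted P = 0.572) with the PPARγ agonist. For the fall of Nqo1, leaving out DMSO replicate 3, 4 or 5 or PPARδ agonist replicate 1, 2 or 5 ended this call (adjusted P up to 0.0712). Nrf2 itself (Nfe2l2) fell with both, at -0.17 and -0.24.

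**Figure D3:**
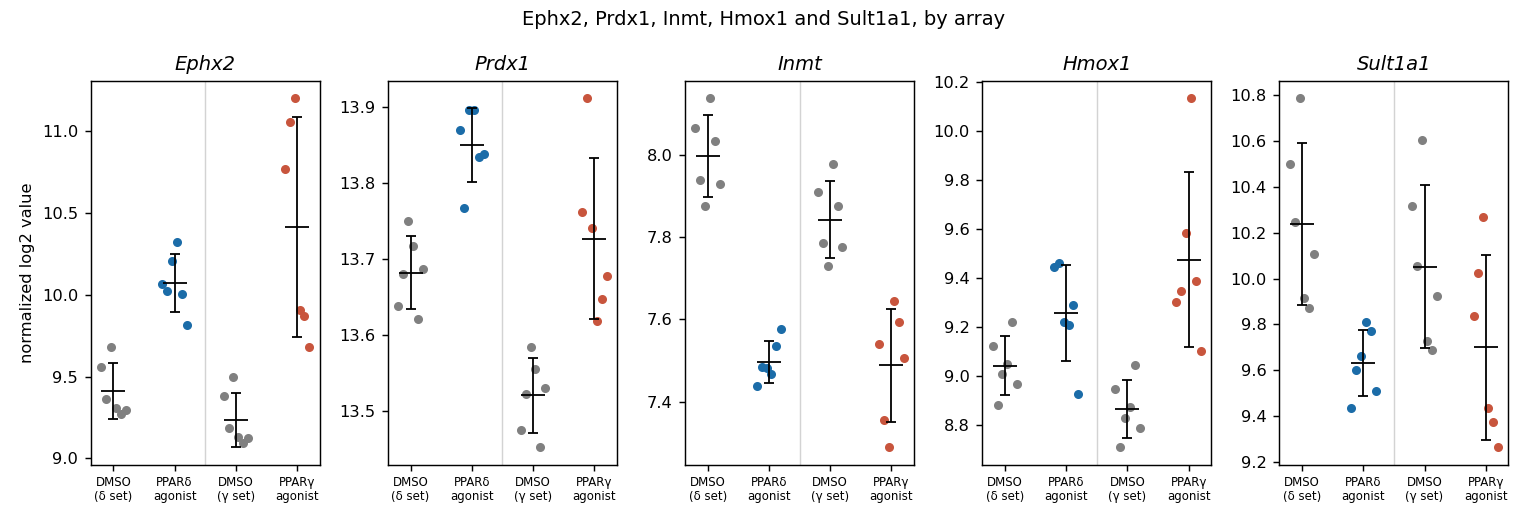
Normalized log2 values (y axis) of Ephx2, Prdx1, Inmt, Hmox1 and Sult1a1 by array and group (x axis), with mean and SD as black bars. Ephx2 and Prdx1 are higher and Inmt lower in both treated groups than in their controls, without overlap, and the Ephx2 values of the PPARγ agonist spread widely, from 9.68 to 11.20.

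The sulfotransferase and 2 of 3 UDP-glucuronosyltransferases fell with the PPARδ agonist. Sult1a1, which transfers sulfate to phenols, read 9.44, 9.60, 9.66, 9.81, 9.77 and 9.51 in treated arrays against 10.50, 10.25, 10.78, 9.92, 9.87 and 10.11 in DMSO and fell by 0.61 (SE 0.12, adjusted P = 0.00293), or 1.52-fold, with no overlap. With the PPARγ agonist it read -0.35 (SE 0.18, adjusted P = 0.178), and the responses were not separated (-0.25, 95% interval -0.57 to 0.06). Ugt1a6b, which attaches glucuronic acid to phenols, ranged from 8.48 to 8.83 (median 8.55) against 8.87 to 9.09 (median 8.99) and fell with the PPARδ agonist by 0.36 (SE 0.060, adjusted P = 0.000892). Ugt1a6a fell by 0.23 (adjusted P = 0.019), while Ugt1a10 read -0.16 (adjusted P = 0.0609). The responses of all 3 differed between the agonists (-0.34, -0.32 and -0.20 in that order), and none passed with the PPARγ agonist. For the difference of Ugt1a6a, leaving out PPARδ agonist replicate 6 ended this call (adjusted P up to 0.054), and for that of Ugt1a10, leaving out PPARδ agonist replicate 1 or 2 or PPARγ agonist replicate 4 or 5 ended this call (adjusted P up to 0.0631). These genes share their last exons, so that probes may not tell them apart and the individual calls are uncertain: other probes of Ugt1a10 fell with the PPARδ agonist by 0.19 and 0.29, whereas a second Ugt1a6a probe read -0.03 in the PPARδ set and fell by 0.26 with the PPARγ agonist.

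Of 13 glutathione S-transferases, by their brightest probes, none rose with either agonist and 2 fell with each. Gstm2 (-0.21, adjusted P = 0.00867) and Gstp1 (-0.17, adjusted P = 0.0129) fell with the PPARδ agonist, and Gstt3 and Gstm5 with the PPARγ agonist. Gstt3 read 9.83 to 10.21 (median 10.00) against 10.31 to 10.50 (median 10.40) and fell by 0.41 (SE 0.063, adjusted P = 0.000208), with no overlap, and Gstm5 fell by 0.24 (adjusted P = 0.00342). Gstt3 and Gstm5 read -0.02 and -0.01 with the PPARδ agonist, and both responses differed between the agonists (0.39 and 0.23). Gsta4, which conjugates hydroxynonenal, a product of lipid peroxidation, passed with neither agonist, at -0.20 (adjusted P = 0.0699) and 0.25 (adjusted P = 0.092), while its responses differed by -0.46 (95% interval -0.68 to -0.23, adjusted P = 0.00424). Without PPARγ replicate 6, Gsta4 rose by 0.34 with that agonist (adjusted P = 0.00913). The calls for Gstp1, Gstk1 and Gstm1 depend on the probe: the other 2 Gstp1 probes read 0.11 and 0.08 with the PPARδ agonist, with the PPARγ agonist the probe used for Gstp1 read 0.01 and a dimmer one fell by 0.47, and of 2 Gstk1 probes 1 read 0.09 and the other fell by 0.36. Between the agonists the 2 Gstk1 probes passed in opposite directions, at 0.32 and -0.19. A dim Gstm1 probe (mean 6.91) rose by 0.21 with the PPARγ agonist (adjusted P = 0.0107), where the brightest read -0.12. The Gstm2 calls also depend on the probe. With the PPARδ agonist another Gstm2 probe passed at -0.18 (adjusted P = 0.0233), and the dimmest read -0.12 (adjusted P = 0.0842). Between the agonists these probes read -0.12 and -0.18 and did not pass (adjusted P = 0.169 and 0.117).

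Of 12 cytochromes P450 measured with the PPARδ agonist, by their brightest probes, Cyp1b1 rose and Cyp51 fell, and of 14 measured with the PPARγ agonist 1 rose and 3 fell. Cyp51, the lanosterol demethylase of cholesterol synthesis, fell by 0.20 (SE 0.051, adjusted P = 0.0137) and its responses differed by -0.30 (adjusted P = 0.00186). Cyp20a1 and Cyp2j9 fell with the PPARγ agonist by 0.30 (adjusted P = 0.00527) and 0.20 (adjusted P = 0.0138). Cyp2c70, a liver bile acid enzyme in the mouse, rose by 0.34 (adjusted P = 0.0146), but was measured in the PPARγ set alone, and its arrays read 6.76, 6.91, 6.98, 6.52, 6.51 and 6.32 against 6.25 to 6.35 (median 6.34), near the floor of 6.25. Probes were kept where detected in at least 1 array, so that a gene detected through the treated arrays alone had to differ. Cyp2f2 did not pass with the PPARδ agonist (-0.41, adjusted P = 0.0662). A dimmer Cyp4f16 probe rose by 0.15 with the PPARδ agonist (adjusted P = 0.0246), where the brightest read 0.005 and another -0.04. The same dimmer probe passed between the agonists (0.16, adjusted P = 0.0218).

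Of 5 glutathione peroxidases, by their brightest probes, 3 fell with the PPARδ agonist. Gpx1 of the cytosol ranged from 12.01 to 12.45 (median 12.34) against 12.51 to 12.70 (median 12.57) without overlap and fell by 0.28 (SE 0.061, adjusted P = 0.00501). The others were Gpx7 (-0.20, adjusted P = 0.0297) and Gpx8 (-0.18, adjusted P = 0.0173), both of the endoplasmic reticulum. Another Gpx8 probe passed at -0.17 (adjusted P = 0.0289), while the dimmest read -0.07 (adjusted P = 0.44) and did not pass. By their brightest probes none of the 5 passed with the PPARγ agonist, where Gpx1 read -0.13 (adjusted P = 0.0846). Gpx7 and Gpx8 read -0.11 and -0.06 there. The responses of Gpx1, Gpx7 and Gpx8 were not separated by the test (-0.16, -0.10 and -0.12, adjusted P = 0.0995, 0.315 and 0.235). A dimmer probe of Gpx4 rose by 0.22 with the PPARγ agonist (adjusted P = 0.0113), so that its call depends on the probe. Gpx4, which reduces peroxides of membrane lipids, passed with neither agonist but differed between them (-0.19, adjusted P = 0.0372). For Gpx7 with the PPARδ agonist, leaving out DMSO replicate 3, 4 or 5 or PPARδ agonist replicate 1 or 4 ended this call (adjusted P up to 0.0723), and for the difference of Gpx4, leaving out PPARδ agonist replicate 2, 5 or 6 or PPARγ agonist replicate 1, 2, 3 or 4 ended this call (adjusted P up to 0.0839). Without PPARγ replicate 6, Gpx4 rose by 0.16 and Gpx1 fell by 0.16 with that agonist.

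Aldehyde dehydrogenases and aldo-keto reductases mostly did not pass. By their brightest probes, 1 of 11 aldehyde dehydrogenases rose with the PPARδ agonist and 0 of 12 passed with the PPARγ agonist (2 at an unadjusted P below 0.05), and of 6 aldo-keto reductases 1 fell with each. A dimmer Aldh4a1 probe rose by 0.30 with the PPARγ agonist (adjusted P = 0.0238), where the brightest read 0.30 (adjusted P = 0.152). A dimmer Aldh5a1 probe fell by 0.16 with the PPARδ agonist (adjusted P = 0.0388). Aldh1a7, a rodent relative of the retinaldehyde dehydrogenases, had the largest rise with the PPARδ agonist among members, 0.70 ± 0.20 (SE, adjusted P = 0.0215), or 1.62-fold. Its arrays read 8.65, 8.73, 8.76, 8.98, 8.25 and 7.66 against 7.92, 7.93, 8.53, 7.58, 7.34 and 7.55, so that 5 of 6 treated arrays were higher than the DMSO mean and replicate 6 was not. The call was lost without DMSO replicate 5 (adjusted P = 0.0546) and with a robust prior (adjusted P = 0.0911). With the PPARγ agonist Aldh1a7 read 0.60 (SE 0.38, adjusted P = 0.27) and did not pass. Its responses were not separated by the test (0.09, adjusted P = 0.878). Akr1e1, which reduces anhydrofructose, ranged from 6.85 to 6.98 (median 6.87) with the PPARγ agonist against 7.35 to 7.48 (median 7.38) and fell by 0.51 (SE 0.039, adjusted P = 4.39e-07), with no overlap, and read -0.01 with the PPARδ agonist. Akr1c12 fell by 0.15 with the PPARδ agonist (adjusted P = 0.0308), and leaving out DMSO replicate 3, 4, 5 or 6 or PPARδ agonist replicate 1 or 2 ended this call (adjusted P up to 0.0702). Aldh6a1, of valine and thymine breakdown, read 0.26 and -0.65 with the agonists and passed with neither, while the difference of 0.92 between the responses passed (adjusted P = 0.0269). For that difference, leaving out PPARδ agonist replicate 2, 3 or 4 or PPARγ agonist replicate 4 or 5 ended this call (adjusted P up to 0.0595), and with a robust prior the adjusted P was 0.0673.

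A test of the difference between the responses found 9 of 70 members higher with the PPARδ agonist, against 13.8% of all genes, and 14 lower, which was 20.0% of the members against 14.0% of all genes. In 4 members, Txn1, Txndc12, Cyp1b1 and Akr1e1, the PPARδ response arrays lay all above those of the PPARγ agonist (9.92% of all genes), and in 0 all below (3.81%). Among the members that passed this test, the largest positive difference was that of Txn1 (1.25) and the largest negative ones those of Gsta4 (-0.46) and Aldh4a1 (-0.44, of proline breakdown). For Aldh4a1, leaving out PPARδ agonist replicate 1 or 6 or PPARγ agonist replicate 1, 2 or 3 ended this call (adjusted P up to 0.0587), and without PPARγ replicate 6 Aldh4a1 rose by 0.39 with the PPARγ agonist (adjusted P = 0.0423). The smaller difference of Gstm2 (-0.19, by its brightest probe) was not called without PPARδ agonist replicate 4 (adjusted P = 0.0502). That of Cyp4f13 (-0.18) was not called without PPARδ agonist replicate 1, 2 or 4 or PPARγ agonist replicate 2 (adjusted P up to 0.0632), and that of Txnrd3 (-0.15) without PPARδ agonist replicate 2 or 3 or PPARγ agonist replicate 3 (adjusted P up to 0.0601).

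**Figure D4:**
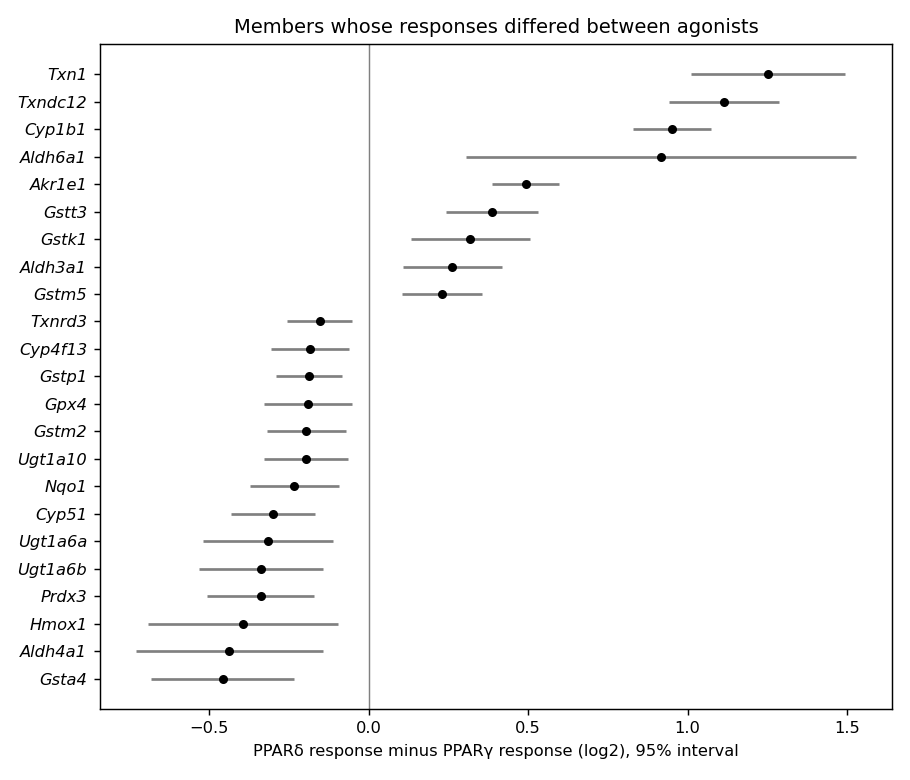
Difference between the PPARδ and PPARγ responses (x axis, log2, each agonist relative to its own DMSO arrays) of the 23 members that passed the test of the difference, with 95% intervals. Txn1, Txndc12, Cyp1b1 and Aldh6a1 stand farthest to the right, and the Aldh6a1 interval is the widest, 0.30 to 1.53.

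Some members varied widely between arrays of 1 group. In the PPARγ agonist arrays, the 10 members with the largest SD (0.381 to 1.07, against a median of 0.133) were Aldh1a7, Gsta3, Cyp2e1, Aldh6a1, Ephx2, Gstz1, Cyp2f2, Sult1a1, Aldh5a1 and Aldh4a1. In all 10, replicates 1 to 3 were the highest 3 of the group, and the same held in the DMSO arrays of that set. Gsta3, an alpha-class glutathione S-transferase, read 10.48, 10.43, 10.60, 9.01, 8.69 and 8.17 in PPARγ agonist arrays and 9.93, 9.72, 10.65, 9.13, 8.94 and 9.34 in DMSO, with a difference of -0.06 ± 0.41 (SE, adjusted P = 0.94). Cyp2e1, which oxidizes ethanol, read 8.11, 8.32, 8.41, 6.78, 6.67 and 6.67 against 7.59, 7.16, 8.28, 6.73, 6.74 and 7.12. In none of the 10 were replicates 1 to 3 the highest 3 in the PPARδ agonist arrays. Replicate 4 was the highest there in all of these but Aldh5a1. The mean adipocyte marker level ran 9.96, 10.17, 10.30, 9.25, 8.999 and 8.85 over PPARγ replicates 1 to 6 and 9.29, 9.31, 9.65, 8.98, 8.91 and 8.95 over the DMSO arrays. In the PPARδ set, over 9 measured markers, it ran 10.12, 10.22, 10.28, 10.415, 9.97 and 9.645 over agonist replicates 1 to 6. The DMSO arrays of that set ran 10.07, 10.05, 10.48, 9.71, 9.57 and 9.65. The part of the marker level in these members was not tested with either agonist. Of these 10 members, Ephx2 passed with the PPARγ agonist in the fit without a replicate block, and 5 others, Aldh4a1, Aldh5a1, Aldh6a1, Gstz1 and Sult1a1, passed with the replicate number as a block (adjusted P between 0.00315 and 0.0474).

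**Figure D5:**
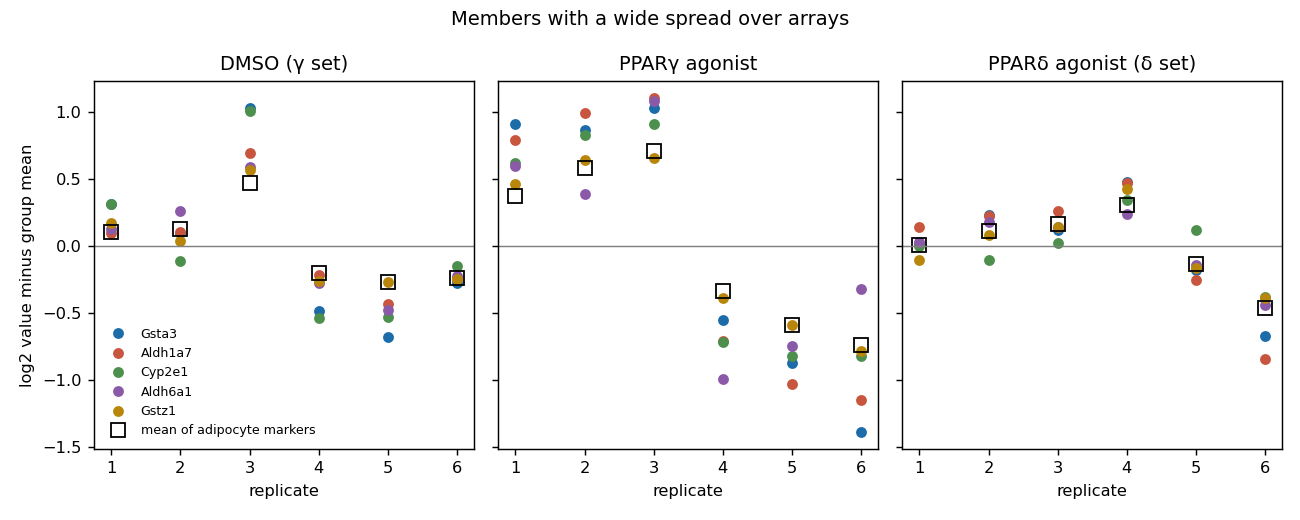
Log2 values minus the group mean (y axis) of Gsta3, Aldh1a7, Cyp2e1, Aldh6a1 and Gstz1 by replicate number (x axis) in 3 groups, beside the mean of the adipocyte markers (open squares). Replicates 1 to 3 lie higher than 4 to 6 for these genes and for the markers in the DMSO and PPARγ agonist arrays; the replicate number is a name and carries no order.

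Enzymes that supply these pathways were counted from lists. Of 14 measured glutathione genes, 2 rose and 1 fell with the PPARδ agonist and 4 fell with the PPARγ agonist: the glutaredoxins Glrx2 and Glrx3 (-0.25 and -0.91), Esd (-0.89), an esterase that completes formaldehyde removal with glutathione, and Slc3a2 (-0.45), a subunit of the cystine transporter. Esd and Glrx2 rose with the PPARδ agonist, by 0.20 and 0.26. The responses of all of these 4 differed, by 1.09 for Esd and 1.09 for Glrx3. Of 10 NADPH genes, malic enzyme Me1 (0.50) and Tkt (0.20) rose and Mthfd2 fell (-0.25) with the PPARδ agonist, while 4 rose and mitochondrial Idh2 fell (-1.05) with the PPARγ agonist; Tkt (0.58) and Idh1 (0.32) were among those that rose. Me1 and Idh2 differed between the agonists (0.74 and 1.18).

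Of 20 other genes against superoxide, peroxide and metals, 5 rose and 2 fell with the PPARδ agonist, among them catalase (Cat, 0.33), paraoxonase Pon2 (0.73) and mitochondrial Sod2 (0.24). With the PPARγ agonist 2 rose, the cytosolic dismutase Sod1 (0.27) and Selenop (0.25), and 4 fell, led by Oxr1 (-0.75). Cat and Sod2 read 0.47 and 0.38 with that agonist and did not pass (adjusted P = 0.0687 and 0.0517). Their responses were not separated by the test (-0.14 and -0.15, adjusted P = 0.571 and 0.426), whereas those of Pon2 differed (0.56, adjusted P = 0.00282). Ferritin light chain Ftl1, a store of iron, rose by 0.14 with the first and fell by 0.32 with the second. Of the electron donors and haem enzymes of P450s, 0 of 13 passed with the PPARδ agonist (3 at an unadjusted P below 0.05), and 2 rose and 3 fell with the PPARγ agonist, among them Pgrmc1 (-0.83) and the reductase Cyb5r1 (-0.69). Among other conjugating and hydrolysing enzymes, 2 of 18 rose and 3 fell with the PPARδ agonist, of which Ephx1, the microsomal epoxide hydrolase, fell by 0.25 and Mgst2 rose by 0.53, and 5 of 19 rose with the PPARγ agonist, including the microsomal transferases Mgst1 (0.51) and Mgst3 (0.56). Of the transporters that export conjugates, Abcc3 fell with both agonists (-0.20 and -0.18) and Abcc4 rose with the PPARγ agonist (0.24). Among 12 regulators, none rose and 2 fell with the PPARδ agonist, and 2 rose (Ppard and Rxrb) and 2 fell (Nfe2l2 and Bach1) with the PPARγ agonist. The lists are described by their counts, beside the shares of all genes given above, and no list was tested.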

How the data were processed

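RNA from 3T3-L1 adipocytes was measured on Illumina mouse WG-6 bead arrays. The deposited log2 values had been made by the authors in lumi: probes with a detection P below 0.01 in at least 1 sample were kept, then variance was stabilized and arrays were quantile normalized, apart for each agonist with its version of the 6 DMSO arrays (12 arrays in each set). The lumi version was not given in the sources used here. The number of arrays limits the precision, and probe detection values were not used here.

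Probes were named from the platform annotation, with symbols updated through a RefSeq gene table (12157 of 13964 probes carry 1 symbol, 4 several and 1803 none). Each gene was represented by its brightest probe, by mean level in the set; 23 members had more than 1 probe in the PPARδ set and 24 in the PPARγ set. limma 3.58.1 in R 4.3.3 (lmFit and eBayes, two-sided, no covariates) was fitted to each set over all 13718 or 13755 probes, and the difference between responses was fitted over 13509 probes on treated values minus the mean of their own DMSO arrays, which uses the spread of the treated arrays alone. P-values were adjusted by Benjamini-Hochberg, with a threshold of 0.05. The fits were tested on simulated data. Genes named are the called members with the largest changes and smallest adjusted P in each family, with the largest of the others, and the called genes of each list. Aldh5a1, Cyp4f13, Txn2 and Txnrd2 lie outside this rule and were named after their values were seen.

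The members, lists and tests were chosen with earlier results of these data known. Alternatives were median centring, cyclic loess, leaving out dim probes, averaging a gene's probes, a robust trended prior, array weights, a replicate block and leaving out each array.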

Additional observations from a re-analysis of the deposited data

Results flagged for a closer look

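In groups of 6 arrays, a value was marked where its gap to the nearest other array exceeded Dixon's 95% critical share of the group's range. Of 206 groups examined, 9 were marked, and chance marks about 1 in 20 groups. Akr1e1 was highest in replicate 3 of the DMSO arrays (7.61 in the PPARδ set and 7.48 in the PPARγ set, which are the same hybridization) and in replicate 3 of the PPARγ agonist (6.98). Aldh3a1 was lowest in DMSO replicate 2 (8.19 and 8.03, again the same hybridization). PPARγ agonist replicate 6 was highest for Cyp20a1 (7.98) and for Nqo1 (8.0), and replicate 5 was highest for Gstm2 (13.48). Cyp2c70 was lowest in DMSO replicate 6 of the PPARγ set (6.25), at the floor of the scale.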

How the results depend on the processing

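The number of members that rose with the PPARγ agonist, 5 as reported, became 11 with array weights, 9 with the replicate block and 8 without PPARγ agonist replicate 6, while the share of all genes that rose went from 10.2% to 16.2%, 12.8% and 14.5%. Over all omissions of 1 array it lay between 5 and 8, and the number that fell between 9 and 11. With the PPARδ agonist the same omissions gave 6 to 7 that rose and 9 to 15 that fell, and the difference between responses gave 8 to 10 higher and 10 to 18 lower. The other alternatives kept these counts within 1.5 times the reported ones. Averaging the probes of Gstp1 turned its direction in all 3 comparisons: 0.0071 (adjusted P = 0.905) with the PPARδ agonist, -0.1074 (adjusted P = 0.0314) with the PPARγ agonist and 0.1144 (adjusted P = 0.025) between them. The same averaging ended the calls of Gstk1 (0.0621, adjusted P = 0.504) and Ugt1a6a (-0.0455, adjusted P = 0.591) between the agonists. No label states whether the replicate numbers pair the arrays, and the reported fits did not use them. Same-numbered treated and DMSO arrays correlated between -0.2286 and 0.2877 in the PPARδ set, where 1 of 6 treated arrays matched its own number best, and between -0.01378 and 0.5445 in the PPARγ set, where 3 of 6 did. The higher values of replicates 1 to 3 in both the DMSO and PPARγ agonist arrays, described above for some members, were not modelled in the reported fits. With the block, Txnl4b lost its call with the PPARδ agonist (adjusted P = 0.06), and Txnrd3 (adjusted P = 0.0537) and Cyp4f13 (adjusted P = 0.0538) lost theirs between the agonists. The block added calls for Aldh3a1, Cyp2f2, Gsta4 and Hmox1 with the PPARδ agonist, for Aldh4a1, Aldh5a1, Aldh6a1, Gsta4, Gstz1 and Sult1a1 with the PPARγ agonist and for Cyp2j9 between them, among the members named. Cyclic loess ended the calls of Cyp4f13 (adjusted P = 0.057), Hmox1 and Txnrd3 (adjusted P = 0.061) between the agonists, and the robust prior those of Hmox1 and Aldh6a1 there and of Aldh1a7 with the PPARδ agonist. Single omissions ended the calls of Akr1c12, Aldh1a7, Gpx7, Nqo1 and Txnl4b with the PPARδ agonist, and of Aldh4a1, Aldh6a1, Cyp4f13, Gpx4, Gstm2, Hmox1, Txnrd3, Ugt1a10 and Ugt1a6a between the agonists. They also added calls. Without PPARγ agonist replicate 6, differences between the agonists also passed for Akr7a5 (-0.1575), Aldh5a1 (-0.395) and Cyp20a1 (0.2128). Their adjusted P were 0.03855, 0.04716 and 0.004973. The causes were not tested. Every array had the same distribution, so that median centring changed nothing.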
